A study of Rattus norvegicus with 13 samples.

Results

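The amyloid precursor family and its secretases were followed in the brain of old rats by 9 genes: App, Aplp1 and Aplp2, which encode the precursor protein and its relatives, Adam10 and Bace1, which encode the alpha- and beta-secretase, and Psen2, Ncstn, Aph1a and Psenen, which encode subunits of the gamma-secretase. A gene was measured through each probe set, a group of short probes whose signals are combined to 1 value, that carried its symbol and no other. That rule gave 1 probe set each for 7 of the 9 genes, so 7 of the 15310 probe sets with 1 gene, which covered 14506 genes. No probe set carried the symbol Aplp2 or Adam10 alone, and these genes are not analysed here.

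The samples were brains without the cerebellum of male rats of the inbred strain Fischer F344, taken at 15 months of age. The fructose group (6 arrays) were offspring of mothers fed a high fructose diet from day 1 of gestation and through lactation, and the control group (7 arrays) were offspring of mothers fed a control diet over the same period. All offspring were weaned on day 20 and then ate chow, so the diets compared were those of the mothers. The design asked whether brain expression in old offspring differed with the diet of the mother. Litters and animals are not identified in the labels, so a p-value here speaks only of the spread over these samples, which may in part be technical.

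The precursor protein spans the membrane and can be cut along competing routes. The alpha-secretase ADAM10 cuts within the stretch that would form the amyloid beta peptide and prevents its release. The beta-secretase BACE1 cuts at the start of that stretch, after which the gamma-secretase complex, made of a presenilin with nicastrin, an APH1 protein and PEN-2, cuts within the membrane and frees the peptide. APLP1 and APLP2 are cut by the same enzymes but lack the amyloid beta sequence. The gamma-secretase also cuts Notch receptors and many other membrane proteins.

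The gene start regions of App, Bace1, Psen2 and Psenen are printed because the last 3 formed the pairs that varied together most over the arrays, as described further on, while App varied apart from them. Each window runs from 250 bases before to 50 bases after the transcript start that the RefSeq table (build GRCr8) uses for the gene, which can lie inside the gene's full span, 5′ to 3′ on the strand of the gene, and capitals mark GC boxes, the letters GGGCGG on either strand. The windows are App at chr11:37722789-37723088 (minus strand), Bace1 at chr8:55038592-55038891 (plus strand), Psen2 at chr13:94516526-94516825 (minus strand) and Psenen at chr1:94943496-94943795 (minus strand).
App: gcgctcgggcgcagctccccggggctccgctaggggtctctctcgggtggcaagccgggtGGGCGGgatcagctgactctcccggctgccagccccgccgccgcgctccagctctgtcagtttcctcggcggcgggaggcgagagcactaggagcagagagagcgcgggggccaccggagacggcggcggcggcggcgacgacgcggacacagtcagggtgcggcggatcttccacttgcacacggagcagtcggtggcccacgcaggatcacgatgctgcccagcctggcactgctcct
Bace1: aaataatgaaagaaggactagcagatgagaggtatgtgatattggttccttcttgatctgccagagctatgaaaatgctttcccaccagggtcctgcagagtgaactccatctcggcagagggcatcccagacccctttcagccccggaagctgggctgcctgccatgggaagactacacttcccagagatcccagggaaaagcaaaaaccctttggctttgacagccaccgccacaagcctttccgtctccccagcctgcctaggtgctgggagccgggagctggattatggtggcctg
Psen2: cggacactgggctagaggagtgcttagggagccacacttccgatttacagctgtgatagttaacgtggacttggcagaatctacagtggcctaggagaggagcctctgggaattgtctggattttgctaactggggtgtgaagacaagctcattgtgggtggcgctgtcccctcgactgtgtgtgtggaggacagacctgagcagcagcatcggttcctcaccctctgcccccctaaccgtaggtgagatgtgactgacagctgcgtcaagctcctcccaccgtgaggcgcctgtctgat
Psenen: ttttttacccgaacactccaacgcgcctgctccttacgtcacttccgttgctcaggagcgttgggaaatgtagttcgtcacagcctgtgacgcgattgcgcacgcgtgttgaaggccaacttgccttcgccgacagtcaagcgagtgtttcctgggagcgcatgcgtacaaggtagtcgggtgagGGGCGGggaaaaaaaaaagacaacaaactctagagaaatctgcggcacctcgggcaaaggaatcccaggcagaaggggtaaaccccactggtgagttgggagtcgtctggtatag

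The App window held 1 GC box and had 72.7% G and C, and the Psenen window held 1 GC box with 54.7%. The windows of Bace1 (54.7%) and Psen2 (56.3%) held 0 GC boxes. The App and Psen2 windows lie inside the spans of these minus strand genes, which begin at 37724351 and 94528419. The letters at those outer ends were not searched. Over all 9 genes of the family 6 windows had a GC box, where 33.1% of 33469 rat gene start windows of the same length have one. A CCAAT box (CCAAT on either strand) was found in 4 of the 9 windows and in 37.5% of all windows, and a TATA box (TATAAA on either strand) in 0 of the 9 and in 14.2% of all. The G and C content of the 9 windows ran from 54.7% to 74.7%, against a median of 51.7% for all. A match describes these letters only.

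In these arrays neuron markers were bright, with a median at the 97.4th percentile of the probe sets with a gene, followed by astrocyte (94.8th) and myelin markers (90.9th). Cerebellar markers had a median at the 34.8th, liver markers at the 21.5th and skeletal muscle markers at the 17.9th percentile. Array medians ran from 7.99 to 8.07 on the log2 scale. The interquartile range of an array, the width of the middle of its value distribution, was narrowest in control replicates 2 (2.15) and 1 (2.19) and lay between 2.26 and 2.50 in the other 11 arrays. These 2 control arrays stand apart by this measure, and the main results are given with and without them.

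Signals of different probe sets depend on their probes, so the percentiles given here place the brightness of a probe set among those with a gene and say nothing of the order of RNA amounts. App, the precursor gene itself (Entrez 54226, chromosome 11, 37506207 to 37724351), stood at the 99.3rd percentile and Aplp1 (chromosome 1, 94824330 to 94834705) at the 96.2nd. Among the enzyme genes, Psenen stood at the 98.7th, Bace1 at the 83.3rd, Ncstn at the 73.9th, Aph1a at the 70.9th and Psen2 at the 46.4th percentile. Psen2, which encodes presenilin 2, thus lay near the middle of the signal range.

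Both precursor genes overlapped widely between the groups. App had a lowest, median and highest log2 signal of 12.15, 12.26 and 12.38 in the fructose group, against 12.16, 12.25 and 12.33 in the control group. Its 4 lowest values were those of fructose replicate 4 (12.155), control replicate 1 (12.160), fructose replicate 3 (12.185) and control replicate 2 (12.197), so low and high arrays were found under both diets. Aplp1, which encodes a relative found mainly in the nervous system, had 11.05, 11.11 and 11.22 in the fructose group, against 10.99, 11.13 and 11.21 in the control group. Here control replicate 1 was the highest control array (11.209), the opposite of its place for App.

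Bace1, the beta-secretase gene (chromosome 8, 55038842 to 55061138), had 9.59, 9.69 and 9.85 in the fructose group, against 9.58, 9.70 and 9.82 in the control group. The groups overlapped over nearly their whole range, with 5 of the 6 fructose arrays inside the control range.

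Among the gamma-secretase genes, Psen2 and Aph1a spread more widely in the control group with the arrays that stand apart than without them. Psen2 (chromosome 13, 94499451 to 94528419) had 7.79, 7.90 and 8.04 in the fructose group, against 7.57, 7.89 and 7.98 in the control group, where control replicate 2 was the lowest (7.574) and control replicate 1 the next (7.798). The SD of Psen2 in the control group was 0.14 (n = 7) with these 2 arrays and 0.044 (n = 5) without them. Aph1a, which encodes the scaffold subunit (chromosome 2, 186123023 to 186130886), had 8.94, 9.03 and 9.08 in the fructose group, against 8.68, 9.04 and 9.10 in the control group. Control replicates 1 (8.685) and 2 (8.856) were the lowest of all 13 arrays, and the control SD was 0.15 (n = 7) with them and 0.029 (n = 5) without them.

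Ncstn, which encodes nicastrin, the subunit that receives substrates (chromosome 13, 87062827 to 87078839), had 9.09, 9.14 and 9.19 in the fructose group, against 9.01, 9.15 and 9.21 in the control group. The 2 arrays lay at opposite ends of the control group for this gene, with control replicate 1 highest (9.211) and control replicate 2 lowest (9.007). Ncstn had the smallest pooled within-group SD of the 7 genes, 0.056, at the 4.68th percentile of the probe sets with a gene. Psenen, which encodes PEN-2, the smallest subunit (chromosome 1, 94942348 to 94943545), had 11.87, 11.90 and 11.96 in the fructose group, against 11.71, 11.86 and 11.93 in the control group. All 6 fructose arrays lay above the control mean and 3 of them inside the control range, while the lowest control arrays were replicates 1 (11.714) and 2 (11.728). No member had groups that did not overlap, which was the case for 0.0384% of the 15633 probe sets.

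**Figure D1:**
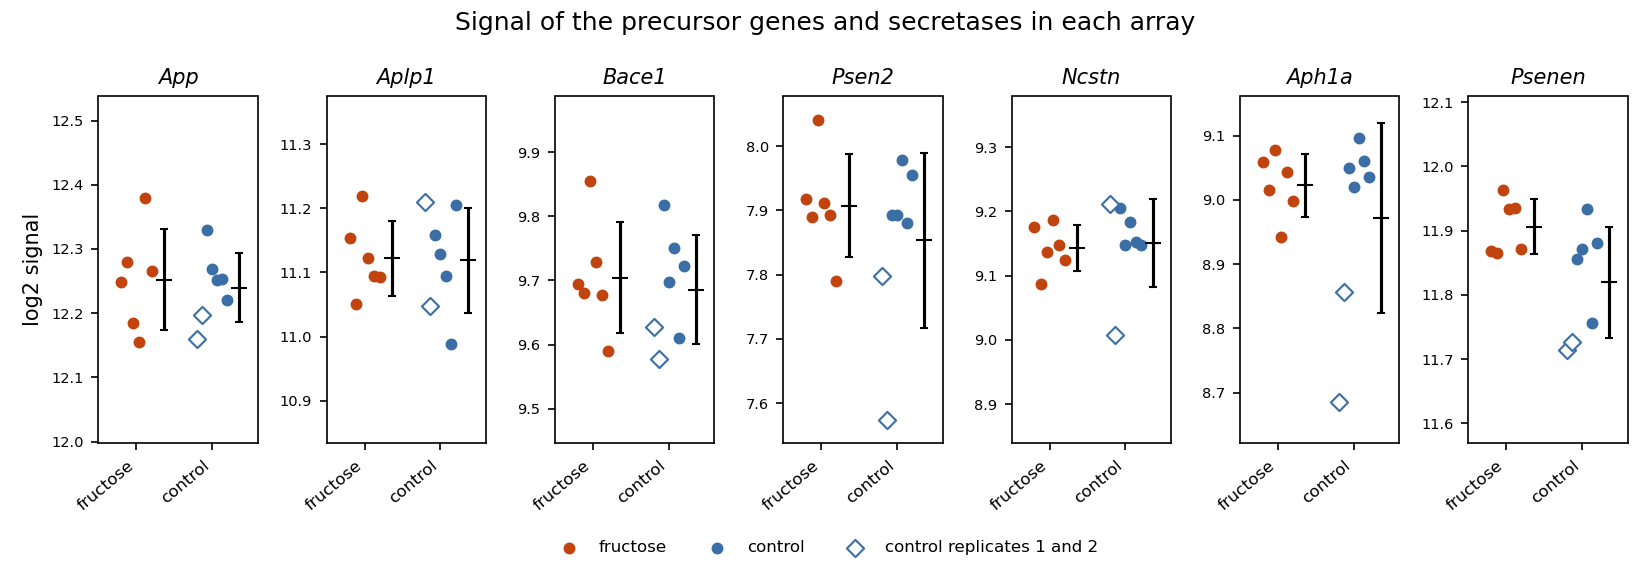
Log2 signal (vertical axis, panels of equal span) of the 7 measured genes in each array, fructose group left and control group right, with the mean and SD as bars at the side and control replicates 1 and 2 as open diamonds. The groups overlap in every panel, and the diamonds are the lowest points for Aph1a and Psenen but not for Aplp1.

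No member passed the test of the mother's diet. In the limma fit 0 of the 7 members passed an adjusted p of 0.05, and so did 0 (0%) of the 15633 probe sets tested. At an unadjusted p under 0.05 there were 0 of the 7, where 2.23% of all probe sets lay. The mean log2 signal of App was 12.25 ± 0.079 (SD, n = 6) in the fructose group and 12.24 ± 0.054 (SD, n = 7) in the control group, a difference of 0.01 with a 95% interval from -0.08 to 0.11 (limma, adjusted p = 0.9998). Aplp1 averaged 11.12 ± 0.058 (SD, n = 6) in the fructose group and 11.12 ± 0.081 (SD, n = 7) in the control group, a difference of 0.0036 (interval -0.09 to 0.10). Bace1 averaged 9.70 ± 0.087 (SD, n = 6) in the fructose group and 9.69 ± 0.086 (SD, n = 7) in the control group, a difference of 0.02 (interval -0.09 to 0.13). Such intervals hold changes of at most 1.08-fold for App, 1.07-fold for Aplp1 and 1.09-fold for Bace1 in either direction.

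Of the gamma-secretase genes, Psenen had the largest difference of the family. It averaged 11.91 ± 0.043 (SD, n = 6) in the fructose group and 11.82 ± 0.086 (SD, n = 7) in the control group, a difference of 0.09 ± 0.05 (SE) with an interval from -0.0095 to 0.18 (limma, unadjusted p = 0.074, adjusted p = 0.9998). Psen2 averaged 7.91 ± 0.080 (SD, n = 6) in the fructose group and 7.85 ± 0.14 (SD, n = 7) in the control group, a difference of 0.05 (interval -0.08 to 0.19). Aph1a averaged 9.02 ± 0.049 (SD, n = 6) in the fructose group and 8.97 ± 0.15 (SD, n = 7) in the control group, a difference of 0.05 (interval -0.08 to 0.18). Ncstn averaged 9.14 ± 0.036 (SD, n = 6) in the fructose group and 9.15 ± 0.069 (SD, n = 7) in the control group, a difference of -0.0079 (interval -0.09 to 0.08). Over the 7 genes the intervals held changes of at most 1.07-fold to 1.14-fold.

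Without control replicates 1 and 2 the signs of App, Bace1, Psen2 and Aph1a turned. In that fit of 6 fructose and 5 control arrays the differences were -0.012 for App, -0.015 for Bace1, -0.013 for Psen2, -0.03 for Aph1a and -0.024 for Ncstn, and 0.0074 for Aplp1. Psenen kept its direction at 0.047 (interval -0.04 to 0.14, unadjusted p = 0.272). Of the 7 genes 6 had a higher mean in the fructose group with all arrays, where 54.1% of all probe sets did, and 2 without these control arrays, where 51.4% did. In that fit 0 (0%) of the 15633 probe sets passed the adjusted threshold and 4.59% lay at an unadjusted p under 0.05, none of them a member.

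**Figure D2:**
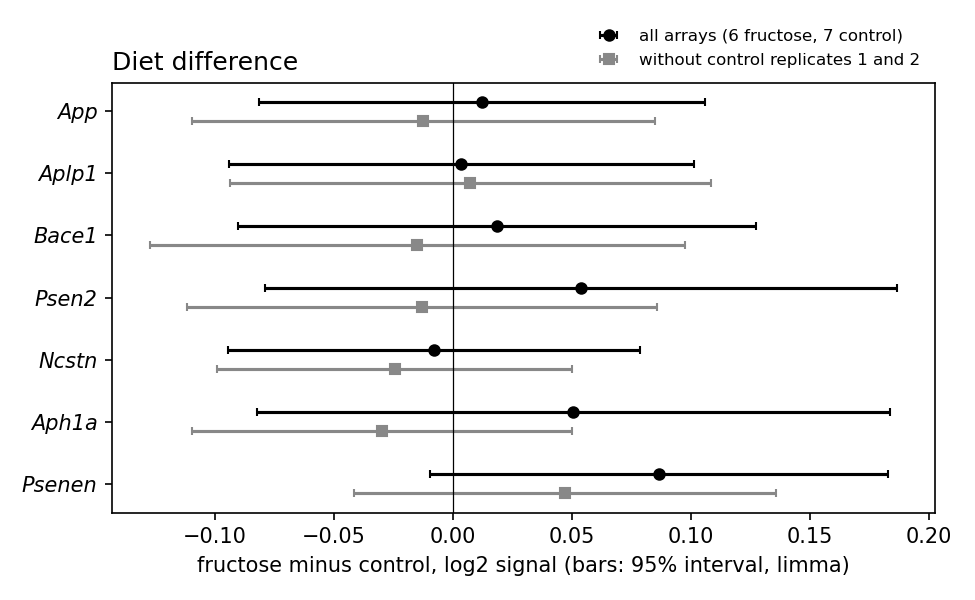
Fructose minus control log2 signal (horizontal axis) of the 7 genes, with 95% intervals from limma, for all arrays (black circles) and without control replicates 1 and 2 (grey squares). Every interval includes 0, and the points of App, Bace1, Psen2 and Aph1a change side when the 2 arrays are left out.

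Other genes that act on the precursor protein or its products gave 50 measured genes of 57 in 6 lists, and 0 of the 50 passed the adjusted threshold. With all arrays the mean of the fructose group was above that of the control group for 35 and below it for 15 (above for 54.1% of all probe sets), and without control replicates 1 and 2 19 were higher and 31 lower (higher for 51.4% of all). Of the 50 genes 1 had an unadjusted p under 0.05, no larger a share than the 2.23% of all probe sets. This was Gga1, which encodes an adaptor that sorts BACE1 between compartments. It averaged 8.87 ± 0.07 (SD, n = 6) in the fructose group and 8.75 ± 0.09 (SD, n = 7) in the control group, a difference of 0.121 (limma, unadjusted p = 0.0285, adjusted p = 0.9998) that was 0.079 without the 2 control arrays. In the same list of trafficking genes, 8 of 10 were higher with all arrays and 4 of 10 without these 2. Gsap, which encodes a protein named for activating the gamma-secretase, differed by -0.099 with all arrays and by -0.049 without the 2.

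In the remaining 5 lists each count and difference is given first with all arrays and then without control replicates 1 and 2. Of the other secretases and sheddases 2 of 4 were higher in both fits, with Adam17, the sheddase of tumour necrosis factor, at 0.088 and 0.041, and Aph1b, the second scaffold gene of the gamma-secretase, at -0.093 and -0.096. Genes of the tetraspanins and tissue inhibitors that act on ADAM10 gave 3 of 5 higher in both fits, with Timp3 at 0.139 and 0.002 and Tspan5 at 0.031 and 0.037. Adaptors that bind the tail of the precursor gave 6 and 4 of 7 higher, with Dab1 at 0.15 and 0.091 and Apba3 at -0.058 and -0.063. Genes that degrade or clear amyloid beta gave 5 and 2 of 11 higher and median differences of -0.005 and -0.02. Among them the lysosomal protease gene Ctsb stood at 0.083 and 0.055 and the matrix metalloproteinase gene Mmp9 at -0.312 and -0.475, with an SD for Mmp9 over all arrays of 0.49 in the fructose group and 0.53 in the control group. Further substrates of the secretases gave 11 and 4 of 13 higher and medians of 0.016 and -0.025, with Notch3 at 0.061 and 0.025 and the sodium channel subunit gene Scn2b at 0.078 and 0.007. The median difference of all probe sets was 0.006 with all arrays and 0.002 without the 2 control arrays.

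The 7 genes did not vary as 1 group over the arrays. Correlations were computed for the 21 pairs of members and for each member with 11 measures of the arrays, 98 relations in all, with permutation tests (100000 resamples, two-sided) and p-values adjusted over the 98. Of the 21 pairs 19 had a positive r, with a median of 0.442, where the median r of a member with all other probe sets lay between 0.039 and 0.092. This held less or not at all under other settings: 15 of 21 were positive without control replicates 1 and 2 (median 0.257), 10 of 21 after the arrays were quantile normalized again (median -0.071) and 11 of 21 after cyclic loess (median 0.033), 2 methods that make the value distributions of the arrays alike.

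Bace1 and Psen2 varied together most closely of the 21 pairs. Their r was 0.768 (permutation p = 0.00123, adjusted p = 0.041) and their Spearman's rho 0.867 (permutation p = 0.00026, adjusted p = 0.0255). Of all other probe sets with 1 gene, 99.4% had a lower r with Bace1 than Psen2 had. Seen from Psen2, 96.9% had a lower r than Bace1 had. Fructose replicate 3 was the highest array for both (9.855 for Bace1 and 8.041 for Psen2) and control replicate 2 the lowest for both (9.578 and 7.574). With the group means removed the r was also 0.768. It was 0.825 without the 2 arrays farthest from the median of Bace1, fructose replicate 3 and control replicate 3, so control replicate 2 stayed in. It was 0.781 without control replicates 1 and 2 (adjusted p = 0.547 on 11 arrays), and between 0.703 and 0.839 with 1 array left out. It was 0.984 within the 6 fructose arrays and 0.698 within the 7 control arrays, or 0.305 in the 5 control arrays that remain without replicates 1 and 2. It was 0.294 with arrays quantile normalized again and 0.363 with cyclic loess, and no longer passed (adjusted p = 0.732 and 0.563).

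Psen2 and Psenen had an r of 0.74 (permutation p = 0.00209, adjusted p = 0.041) and a rho of 0.728 (permutation p = 0.00633, adjusted p = 0.212). That r was close to the 95th percentile of all r with Psen2, 0.731. Of the other probe sets with 1 gene, 95.6% had a lower r with Psen2 and 97.5% a lower r with Psenen. Without the 2 arrays farthest from the median of Psen2 the r was 0.582 (permutation p = 0.052) and without control replicates 1 and 2 it was 0.53. It was 0.427 with arrays quantile normalized again and 0.556 with cyclic loess. The pair of Aph1a and Psenen (r = 0.683) rested on those 2 control arrays, since r was -0.032 without them. App went with no other member past the threshold. Its r ran from -0.31 with Aplp1 to 0.529 with Aph1a, and without the 2 control arrays 5 of its 6 values were negative.

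Some members are near each other in the genome. Aplp1 and Psenen are 107.6 kb apart on chromosome 1 of GRCr8 with 8 coding genes between them, and their r was 0.275, which was 0.588 without control replicates 1 and 2 (permutation p = 0.058, adjusted p = 0.547), -0.255 with arrays quantile normalized again and -0.153 with cyclic loess. Psen2 and Ncstn lie 7421 kb apart on chromosome 13 and had an r of 0.604, which was 0.198 without control replicates 1 and 2, -0.141 with arrays quantile normalized again and -0.182 with cyclic loess.

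**Figure D3:**
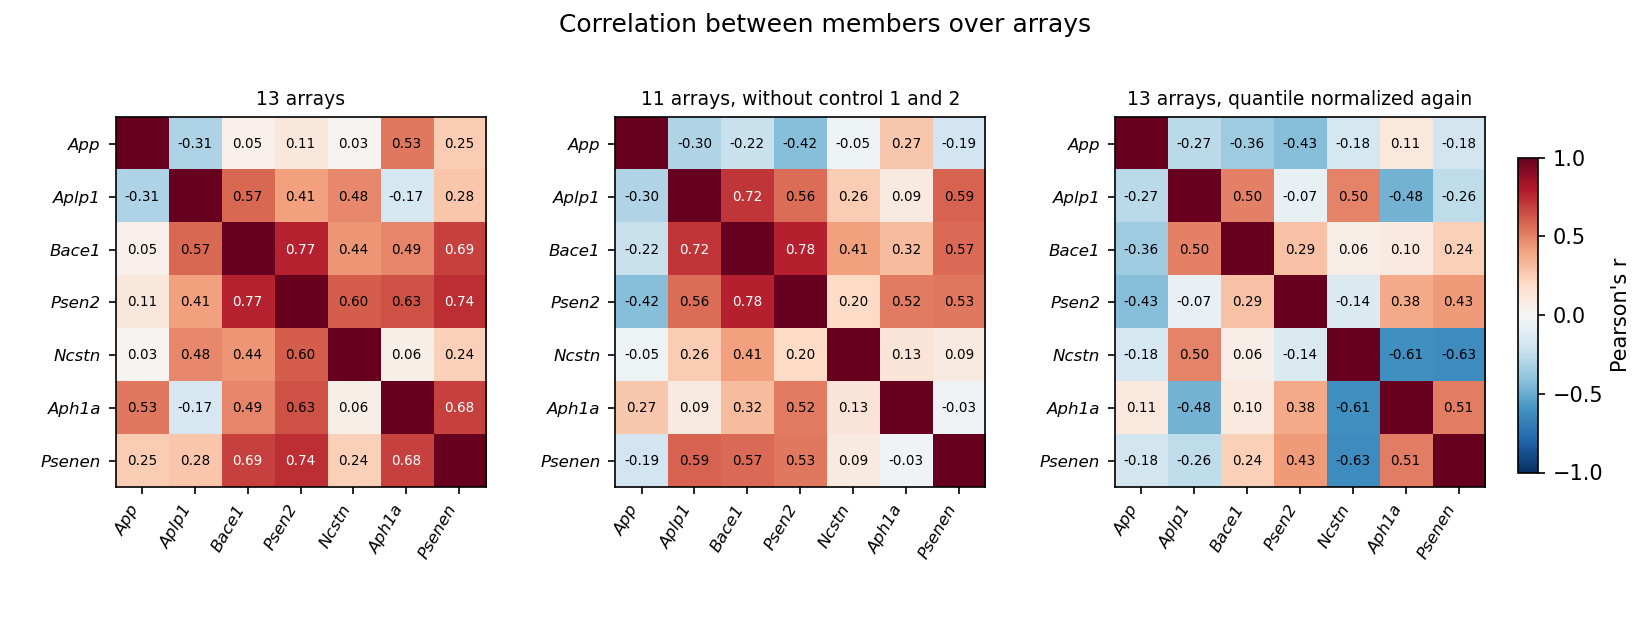
Pearson's r (colour and number) between the 7 genes over 13 arrays, over 11 arrays without control replicates 1 and 2, and over 13 arrays quantile normalized again. Bace1 and Psen2 have 0.77 and 0.78 in the first 2 panels and 0.29 in the third, and the row of App is mostly pale or blue in all 3.

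The spread of an array's values moved with several of the enzyme genes. The interquartile range of the array had an r of 0.812 with Psen2 (permutation p = 0.00056, adjusted p = 0.041; rho = 0.724, permutation p = 0.0073, adjusted p = 0.212), of 0.782 with Aph1a (permutation p = 0.00298, adjusted p = 0.0417; rho = 0.632, permutation p = 0.0236, adjusted p = 0.212) and of 0.735 with Psenen (permutation p = 0.00532, adjusted p = 0.0639). The values were 0.068 for Aplp1 and 0.431 for App. The share of all probe sets with as strong an r with the interquartile range is not given here. The relation is therefore not read as particular to these genes. Psenen had a rho of 0.553 over all arrays (permutation p = 0.052, adjusted p = 0.283). The 2 arrays farthest from the median interquartile range were control replicates 1 and 2. Without them r was 0.563 for Psen2, 0.44 for Aph1a and 0.312 for Psenen. On these 11 arrays none of them passed (permutation p = 0.0693 for Psen2, 0.175 for Aph1a and 0.348 for Psenen). Their adjusted permutation p was 0.547, 0.705 and 0.821. None of the 98 relations passed without these 2 control arrays. With fewer arrays, the lack of a pass does not show that a relation is absent. With any 1 array left out, r with Psen2 lay between 0.688 and 0.882 and r with Aph1a between 0.755 and 0.812. With member values quantile normalized once more, the deposited interquartile range had an r of 0.778 with Psen2 (adjusted p = 0.0946) and of 0.475 with Aph1a. Cyclic loess gave 0.81 for Psen2 (adjusted p = 0.0598) and 0.49 for Aph1a. The part of this array property in the correlation of Bace1 and Psen2 was not tested beyond the renewed normalizations above.

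**Figure D4:**
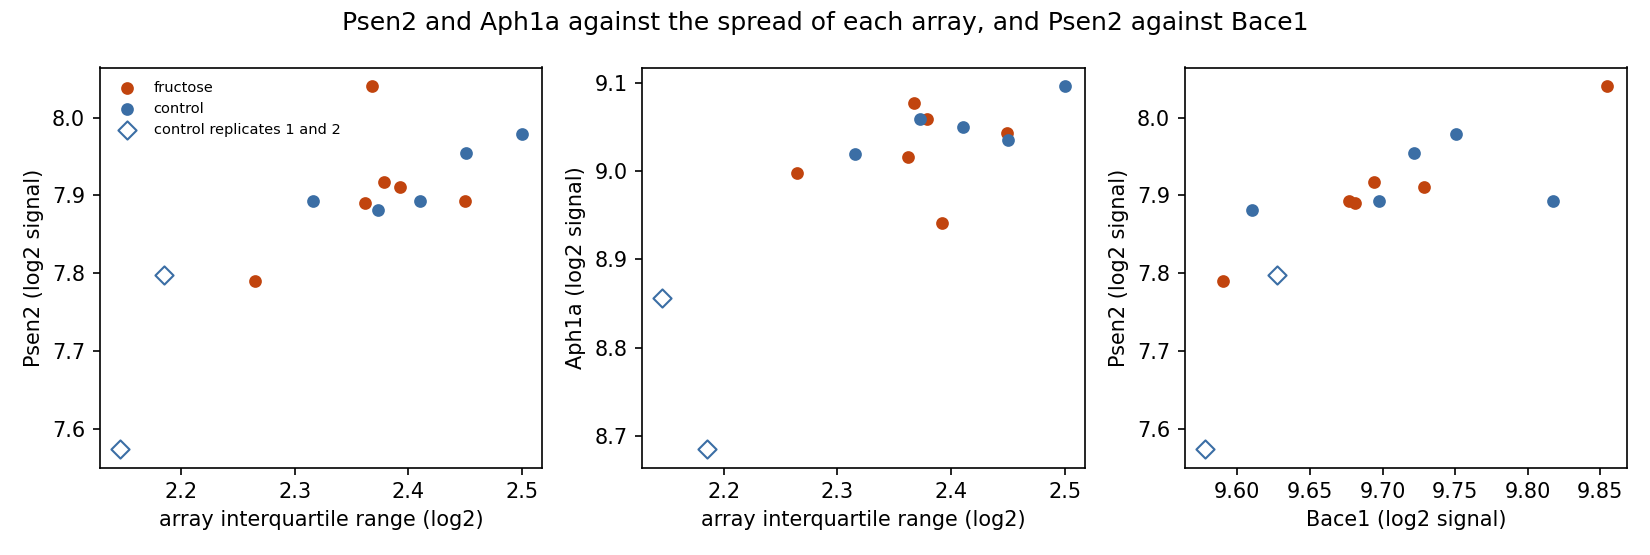
Log2 signal of Psen2 and Aph1a against the interquartile range of each array, and Psen2 against Bace1, with 1 point per array (orange fructose, blue control, open diamonds control replicates 1 and 2). In the first 2 panels the diamonds lie at the left end, at 2.15 and 2.19, and for Aph1a they are the lowest points. In the third the fructose points lie close to 1 line (r = 0.984) and the control points scatter more widely, with control replicates 2 and 3 below that line.

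With all arrays, marker means passed the adjusted threshold with 3 of the genes: endothelial with App, astrocyte with Psenen and skeletal muscle with Psen2. These also passed with group means removed, and so did Aph1a with 2 of the marker means. These were skeletal muscle (r = -0.75, adjusted permutation p = 0.0298) and astrocyte markers (r = 0.722, adjusted permutation p = 0.0493). With all arrays Aph1a had an r of -0.765 and 0.738 with them and did not pass (adjusted permutation p = 0.0639 and 0.0757). Without control replicates 1 and 2 these were -0.265 and -0.117. None passed by rho, without control replicates 1 and 2, without the 2 arrays farthest from the median, or after either renewed normalization. The share of all probe sets with as strong an r is not given here. Skeletal muscle was not sampled, so its relations are not read as those of a cell type. In RNA of brain tissue with many cell types, fewer cells of a type and less RNA per cell cannot be told apart. App went with endothelial markers, genes of the blood vessel lining: r with the mean of 10 markers was 0.753 (permutation p = 0.00278, adjusted p = 0.0417) and rho was 0.665 (permutation p = 0.0155, adjusted p = 0.212). That mean ran from 8.144 to 8.473 in the fructose group and from 8.159 to 8.428 in the control group. The r was 0.699 without the 2 arrays farthest from its median and 0.675 without control replicates 1 and 2 (adjusted p = 0.547). Without these 2 control arrays rho was 0.473 (permutation p = 0.146). With arrays quantile normalized once more r was 0.673 (permutation p = 0.0127, adjusted p = 0.416). Cyclic loess gave 0.757 (permutation p = 0.00309, adjusted p = 0.101). All 10 markers had a positive r with App, from 0.217 for Cdh5, a junction cadherin, to 0.927 for Esam, an adhesion molecule of endothelial junctions.

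Esam was also the gene most like App among all probe sets with 1 gene, with an r of 0.928 within the fructose group and 0.934 within the control group. The r of App with the other 9 endothelial markers was 0.714 (permutation p = 0.00588). Without control replicates 1 and 2 it was 0.626 (permutation p = 0.0469). The second most like App was Cyyr1 at 0.903 (0.900 without control replicates 1 and 2), its next coding neighbour on chromosome 11, with 0 coding genes in the 319.7 kb between them in GRCr8. The third was Atox1, a copper chaperone gene, at 0.901. Fructose replicate 7 was the highest array for App (12.38), Esam (8.55) and Cyyr1 (8.712), and fructose replicate 4 and control replicate 1 were the lowest for App (12.155 and 12.160) and Esam (8.216 and 8.218). These genes were named for their likeness, so their values are a description.

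**Figure D5:**
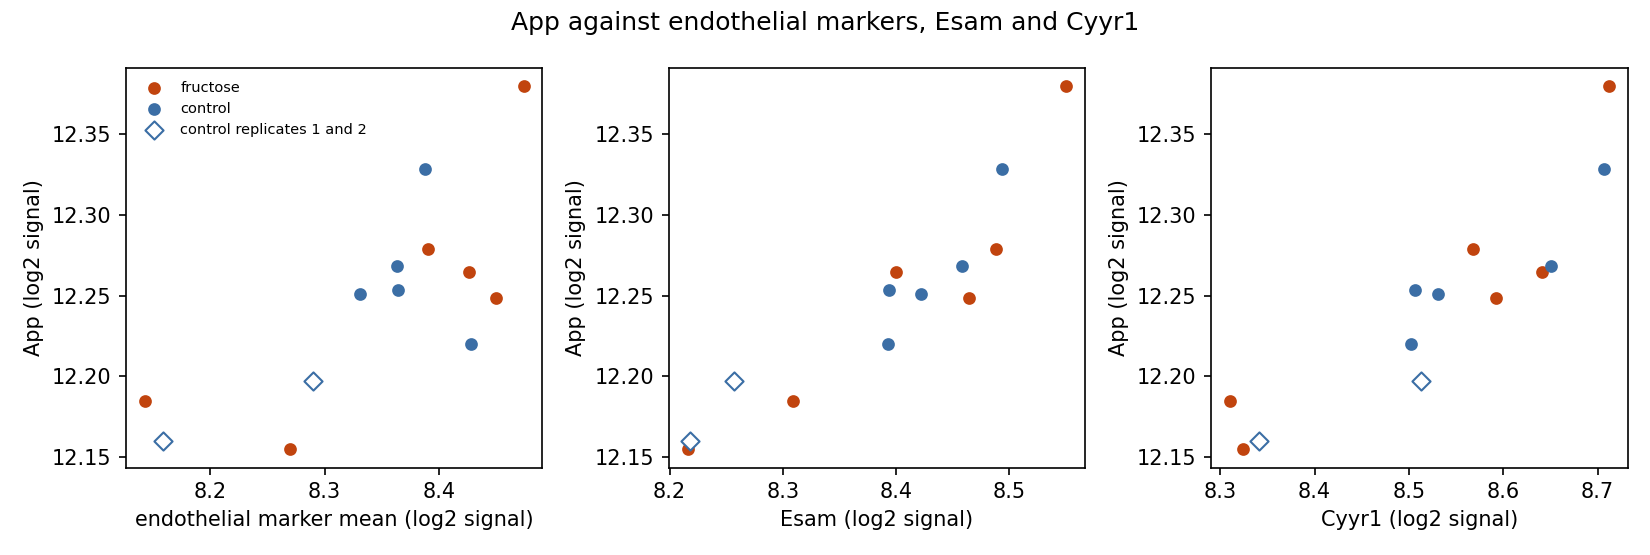
Log2 signal of App (vertical axis) against the mean of the endothelial markers, Esam and Cyyr1, with 1 point per array (orange fructose, blue control, open diamonds control replicates 1 and 2). The points of both groups lie along the same rising line for Esam, where r was 0.927.

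Psenen went with astrocyte markers (r = 0.783, permutation p = 0.002, adjusted p = 0.041; rho = 0.704, permutation p = 0.00898, adjusted p = 0.212). The means of these 10 markers were 10.332 and 10.363 in control replicates 1 and 2 and 10.542 or higher in the other control arrays, and from 10.562 to 10.711 in the fructose group. Without the 2 control arrays r was 0.398. The renewed quantile normalization gave 0.631 (adjusted p = 0.468) and cyclic loess gave 0.722 (adjusted p = 0.156). Psen2 ran against the 5 measured skeletal muscle markers (r = -0.784, permutation p = 0.00184, adjusted p = 0.041; rho = -0.597, permutation p = 0.0354, adjusted p = 0.248), most of them dim here, with means of 7.358 and 7.398 in control replicates 1 and 2 and at most 7.245 in the fructose group. That r was -0.403 without the 2 control arrays and -0.591 without control replicate 2 alone, while arrays quantile normalized once more gave -0.829 (adjusted p = 0.0946) and cyclic loess gave -0.839 (adjusted p = 0.0598). Myelin, microglia, meninges, choroid plexus, cerebellum and liver markers passed with 0 of the 7 genes, and neuron markers also with 0 of the 7, at most 0.587 for Psenen.

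The genes most like the other members were named by the same rule, the 3 highest r over 13 arrays. For Bace1 they were Zfp142, Grin2c, a subunit gene of NMDA receptors, and Chfr, with r from 0.909 to 0.918 and still from 0.885 to 0.902 without control replicates 1 and 2. For Psen2 the first was Gga2, an adaptor of the family that sorts BACE1, at 0.931 (0.899 without the 2 arrays), followed by Cnot10 (0.929 and 0.791) and Pir (0.923 and 0.809). Psenen was most like Chst7, Elp5 and Tdrkh (0.899 to 0.911, and 0.732 to 0.815 without the 2 arrays), and Aplp1 most like Cysltr1, Bbs1 and Ggta1 (0.796 to 0.834, and 0.784 to 0.84), the lowest leading values of the family. Ncstn was most like Atp7a, a copper transporter gene, Prpf8 and Cog1 (0.855 to 0.878), and without the 2 arrays these values were 0.571, 0.71 and 0.757. Aph1a was most like Rplp2 at 0.927, which was 0.117 without the 2 control arrays, then Rab1b (0.923 and 0.55) and Dnajc14 (0.919 and 0.659).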

How the data were processed

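Brain RNA of 13 samples was labelled from 100 ng per sample and hybridised to an Affymetrix rat gene array, per the labels' protocols. The deposited values are log2 signals of 29214 probe sets made by the authors with RMA (R 3.0.1), per the submitters' processing notes. RMA corrects the background, equalises distributions and summarises probes. Of the 15633 probe sets with a gene 41.3% held a value shared by at least 2 arrays (equal to 6 decimals), for Psen2 and Ncstn in 3 arrays each. Without detection calls, the height of dim signals over background is unknown. Precision is limited by the 13 arrays.

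Genes came from the platform annotation, positions and promoters from RefSeq (GRCr8). limma 3.58.1 in R 4.3.3 (lmFit, eBayes) compared fructose with control on the 15633 probe sets, with Benjamini-Hochberg adjustment over all of them and no filter. Correlations used numpy 2.4.6, and marker means the brightest probe set per gene. The members and lists were chosen with earlier results of these data known. Named were all members, the 3 genes most like each, and the 2 genes of each pathway list with the smallest p. Same-numbered samples of both groups were checked for pairing: the correlation of their deviations ran from -0.335 to 0.187 over 6 pairs, so the numbers were not used as a block. Alternatives were other normalizations, filters, priors, weights and sets of arrays. The main limma fit was tested on simulated data, and the correlations were not.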

Additional observations from a re-analysis of the deposited data

Results flagged for a closer look

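For each of the 7 genes the lowest and the highest array of each group were set against the other arrays of the group, 28 checks in all. Chance flags about 1 in 20 groups. The value of Ncstn in control replicate 2 (9.007) lay far below the other control arrays, the nearest of which was at 9.148, and its gap was 0.687 of the range of the group.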

How the results depend on the processing

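In each of the 22 alternative limma fits, 0 probe sets passed the adjusted threshold and no member came under an adjusted p of 0.9525. Over the fits of all 15633 probe sets between 248 and 759 lay at an unadjusted p under 0.05, against 348 in the fit reported, and there were 225 of 10943 without the 30% dimmest and 871 of 29214 over all probe sets of the table. The smallest unadjusted p of a member was 0.0294, for Psenen without control replicate 5. Psenen was higher in the fructose group in all 22 fits (0.047 to 0.106), while 23 of the 154 member values turned their sign, each within the interval of the difference. With renewed quantile normalization these were App (-0.0248), Aplp1 (-0.0234) and Bace1 (-0.000527), and with cyclic loess App (-0.0129), Aplp1 (-0.0195) and Bace1 (-4.85e-05). Without control replicates 1 and 2 they were App (-0.0124), Bace1 (-0.015), Psen2 (-0.0129) and Aph1a (-0.0298), and with array weights Aplp1 (-0.000108). With the replicate block Aplp1 stood at -0.000336 and 0 probe sets passed. No pairing by number was seen. Of the 6 same-numbered pairs 1 had a correlation of deviations over 0.1. In these deviations 0 fructose arrays correlated best with the control array of their own number. Such low values do not exclude a pairing. With 1 array left out, values ran from -0.0134 to 0.0317 for App, -0.018 to 0.0187 for Aplp1, -0.0117 to 0.0412 for Bace1 and -0.0318 to 0.00329 for Ncstn. Of the 21 member pairs 2 passed over all arrays, 4 with group means removed, 1 by Spearman's rho, 1 without the 2 arrays farthest from the median, and 0 without control replicates 1 and 2, after renewed quantile normalization or after cyclic loess. Of the 77 relations with array measures 5 passed, 8 with group means removed and 0 under each of the other 5 settings; the 11-array settings have fewer samples, and otherwise the cause was not tested. Other probe sets of a member could not be tried, since each gene had 1. Leaving out each array in turn and the endothelial list without Esam were chosen after seeing the data.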
